A study of Mus musculus with 27 samples.

Results

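Collagens, laminins and the other genes that build and remodel the liver matrix were followed in liver RNA-Seq from 27 male C57BL/6J mice. The genes were chosen by name: every collagen chain and every laminin chain in the count table, together with fibronectin, elastin, the small proteoglycans, matrix enzymes and their inhibitors, and genes that mark hepatic stellate cells or myofibroblasts. Of 23191 gene symbols, 73 carried such a name, and 61 of these had at least 10 counts in at least 6 libraries and are described here. The other 12 were *Timp1*, *Col2a1*, *Col6a4*, *Col9a1*, *Col9a2*, *Col10a1*, *Col11a1*, *Col17a1*, *Col19a1*, *Col22a1*, *Col26a1* and *Col28a1*. *Timp1*, an inhibitor of matrix metalloproteinases that is known to rise in liver injury, reached 10 counts in only 3 libraries and had at most 32 counts in any of them.

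HGFAC is a liver-derived serine protease of the blood that activates hepatocyte growth factor. HGFAC-KO mice carried a whole-body deletion, made by CRISPR/Cas9, that removed part of the first coding exon of *Hgfac* and all of the next, and they were compared with their littermate controls. From 8 weeks of age the mice ate chow or a diet high in fat and sucrose (HF/HS) for 4 weeks, which gave 7 control and 6 HGFAC-KO mice on chow, and 7 control and 7 HGFAC-KO mice on HF/HS. All groups shared the C57BL/6J background and the male sex, and each library came from 1 mouse. The files held whole-number counts per gene, with 36056177 to 57298657 counts to named and unnamed genes in each library. Levels are given below as CPM, counts scaled to the normalized size of each library, and levels of different genes are compared only per kb of exon.

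*Hgfac* itself was 201 ± 12.8 CPM (SD, n = 7) in chow-fed controls and 75.2 ± 8.27 CPM (n = 6) in chow-fed HGFAC-KO mice. On HF/HS it was 271 ± 15.5 CPM (n = 7) and 91.8 ± 7.94 CPM (n = 7). No HGFAC-KO mouse reached the lowest control of its diet, and the remaining counts could not be assigned to deleted or retained exons in a table of counts per gene.

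Stellate cells lie between the hepatocytes and the sinusoidal endothelium, store vitamin A and, when activated, become myofibroblasts that deposit fibrillar collagen. In the healthy liver the matrix is sparse: a loose layer of collagen IV, collagen XVIII, laminin and fibronectin in the space of Disse, and fibrillar collagens I, III and V around portal tracts and central veins. Hepatocytes also make matrix, including plasma fibronectin and collagen XVIII, so matrix genes in whole-liver RNA do not all come from stellate cells. Collagens assemble from 3 chains and laminins from an alpha, a beta and a gamma chain, so the partners of one molecule are encoded by different genes.

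Fibronectin and collagen XVIII had the highest levels per kb of the set. *Fn1*, the fibronectin gene, had a mean level of 194 CPM per kb of exon over the 27 mice, and *Col18a1*, whose product carries endostatin at its C-terminal end, had 171 CPM per kb. The next in order of level per kb were the small leucine-rich proteoglycans decorin (*Dcn*, 19.2 CPM per kb) and biglycan (*Bgn*, 13.9 CPM per kb), the collagen-binding glycoprotein *Sparc* (12.1 CPM per kb) and the membrane-bound collagenase *Mmp14* (11.5 CPM per kb). Among the chains of the basement membrane, *Col4a1* and *Col4a2* had levels of 8.45 and 7.23 CPM per kb.

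Among the laminin chains, *Lamc1* was the highest at 2.70 CPM per kb, and *Lamb3* stood at 2.01 CPM per kb. Fibrillar chains spanned 0.0434 to 6.39 CPM per kb, with *Col5a3* the highest, *Col27a1* at 6.05, *Col3a1* at 2.92 and *Col1a1* at 1.53 CPM per kb. Of the stellate and myofibroblast markers, *Reln*, a secreted glycoprotein made by stellate cells, was the highest at 2.46 CPM per kb, near *Lamc1*. *Acta2*, the smooth muscle actin of activated stellate cells, was at 0.647 CPM per kb.

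**Figure D1:**
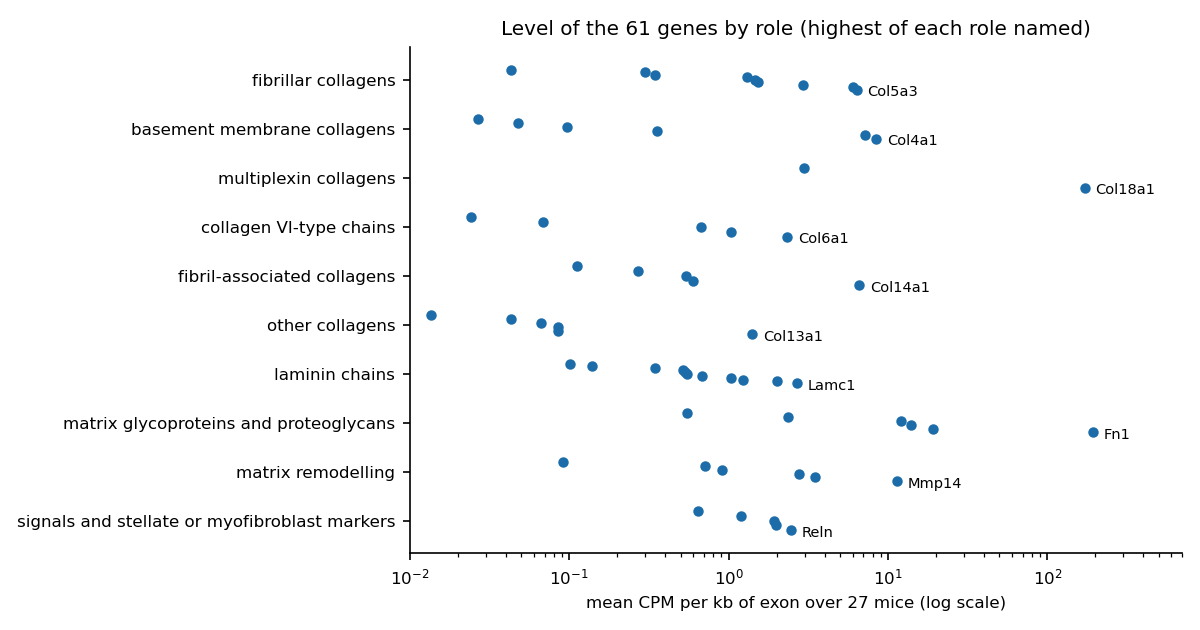
Mean level of each of the 61 genes over 27 mice, in CPM per kb of exon on a log axis, in rows by role. Each point is a gene and the highest gene of each role is named; *Fn1* and *Col18a1*, at 194 and 171 CPM per kb, stand apart from *Dcn*, the next at 19.2 CPM per kb.

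Of the 6 genes that passed the test for diet in control mice, upstream sequence is shown for *Lamb3*, *Bgn* and *Col27a1*, so that the start regions of genes that rose together can be read side by side. Each line holds the 250 bases before a transcription start listed by RefSeq, on GRCm38.p6, 5′ to 3′. For *Lamb3* and *Col27a1* this start lies inside the gene as annotated by GENCODE, which begins at 193207699 and 63214004. Which start is used in liver was not tested. Capitals mark matches to GGGCGG, the GC box, on either strand; adjoining matches can share bases.
Lamb3 (chr1:193301744-193301993, plus strand): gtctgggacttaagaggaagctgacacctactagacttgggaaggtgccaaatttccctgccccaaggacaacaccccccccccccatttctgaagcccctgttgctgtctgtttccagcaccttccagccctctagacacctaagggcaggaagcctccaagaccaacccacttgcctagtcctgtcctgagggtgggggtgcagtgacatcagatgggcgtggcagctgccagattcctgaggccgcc
Bgn (chrX:73483351-73483600, plus strand): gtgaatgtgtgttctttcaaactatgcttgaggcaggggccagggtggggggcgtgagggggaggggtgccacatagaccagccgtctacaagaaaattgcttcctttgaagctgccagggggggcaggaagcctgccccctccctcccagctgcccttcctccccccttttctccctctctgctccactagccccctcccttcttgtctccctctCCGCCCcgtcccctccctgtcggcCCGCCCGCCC
Col27a1 (chr4:63215162-63215411, plus strand): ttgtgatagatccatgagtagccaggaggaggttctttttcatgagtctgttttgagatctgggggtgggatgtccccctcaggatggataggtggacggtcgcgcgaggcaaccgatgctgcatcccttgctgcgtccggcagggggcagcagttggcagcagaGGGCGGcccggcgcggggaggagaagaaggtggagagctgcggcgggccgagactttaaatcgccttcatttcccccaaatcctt

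The windows were searched on both strands for 5 short motifs: the TATA box as TATAAA, the CAAT box as CCAAT, the GC box as GGGCGG, the AP-1 motif as TGANTCA, and the E-box as CACGTG. *Bgn* had 3 matches to GGGCGG, which began 34, 10 and 6 bases before the start, and *Col27a1* had 1, which began 85 bases before the start. In *Lamb3* none of the 5 motifs was found. Over 32851 promoters of the same table and length, the GC box was found in 32.7%, the CAAT box in 33.8%, the TATA box in 12.4%, the AP-1 motif in 6.75% and the E-box in 6.02%. The 3 windows thus had no motif in common among those searched, and G and C made up 58.8% of the bases in *Lamb3*, 64.4% in *Bgn* and 59.6% in *Col27a1*.

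In control mice, HF/HS feeding raised 6 matrix genes and lowered none. These were 2 laminin chains (*Lamb3* and *Lama3*), fibronectin (*Fn1*), biglycan (*Bgn*) and the collagens *Col18a1* and *Col27a1*, and their rises ran from 0.15 to 0.99 on the log2 scale. Of the 59 genes tested, 6 were higher at an adjusted p under 0.05 (edgeR's quasi-likelihood test, Benjamini-Hochberg over all 13525 genes tested), beside 4.93% of all genes tested that were higher and 5.6% that were lower. Of the 59 genes, 13 had an unadjusted p under 0.05, beside 25.4% of all genes. The median log2 fold change of the 59 genes was 0.06, and 37 of them were above 0, while the median of all genes was 0.00; the median of the 59 was 0.02 without chow-fed control 1 and 0.10 without chow-fed control 3.

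*Lamb3*, the beta chain of laminin-332, rose most. It was 8.12, 9.86 and 14.8 CPM (lowest, median and highest of 7) in chow-fed controls and 13.5, 20.9 and 29.5 CPM in HF/HS-fed controls, and 6 of the 7 HF/HS-fed mice were above every chow-fed mouse. The log2 fold change was 0.99 ± 0.17 (SE; adjusted p = 0.00141, edgeR), and the exact two-sided permutation test gave p = 0.00117. *Lama3*, the alpha chain of the same laminin, ran from 3.81 to 6.47 CPM (median 4.43) on chow and from 4.90 to 11.8 CPM (median 6.68) on HF/HS. With 4 of 7 HF/HS-fed controls above all chow-fed controls, its groups overlapped, and its log2 fold change was 0.63 ± 0.17 (adjusted p = 0.0251, edgeR).

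*Lamc1*, the gamma chain of the common laminins of vessels and sinusoids, had a level of 24.3 ± 1.90 CPM on chow and 21.2 ± 1.55 CPM on HF/HS, which did not pass the threshold (log2 difference -0.20 ± 0.06, adjusted p = 0.0502, edgeR).

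*Fn1* ran from 1667 to 2151 CPM (median 2033) in chow-fed controls and from 2125 to 3379 CPM (median 2437) in HF/HS-fed controls. All but 1 of the 7 HF/HS-fed mice exceeded the highest chow-fed control, and the log2 fold change was 0.38 ± 0.09 (adjusted p = 0.0124, edgeR; exact permutation p = 0.00175). Without HF/HS-fed control 7, whose *Fn1* level was the highest of all mice, the log2 fold change was 0.30. *Col18a1* rose from 1139 ± 32.7 to 1265 ± 57.7 CPM (SD, n = 7 each), a small change of 0.15 ± 0.04 on the log2 scale (adjusted p = 0.0354, edgeR), and 6 of 7 HF/HS-fed mice were above all chow-fed controls.

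*Bgn*, a proteoglycan of fibrillar matrix, averaged 77.6 ± 8.26 CPM on chow and 91.7 ± 8.45 CPM on HF/HS, a rise of 0.24 ± 0.07 on the log2 scale (adjusted p = 0.0452, edgeR), and 4 of 7 HF/HS-fed mice were above all chow-fed controls. *Col27a1*, a fibrillar collagen best known from cartilage, was 55.3 to 83.2 CPM (median 65.0) on chow and 59.1 to 172 CPM (median 101) on HF/HS. Its HF/HS-fed values were widely spread and 4 of 7 lay above all chow-fed controls (log2 fold change 0.67 ± 0.20, adjusted p = 0.0487, edgeR). *Lamb3* and *Fn1* passed the threshold whichever mouse was left out. Each of the other 4 genes lost it in at least 1 such fit, and the number called higher ran from 2 to 6, with 2 when chow-fed control 5 was left out and 3 when chow-fed control 1, 2, 6 or 7 or HF/HS-fed control 2 or 5 was. DESeq2 called the same number higher and 4 lower (*Lamc1*, *Col12a1*, *Col15a1* and *Col20a1*), upper-quartile normalization gave 4 higher and 1 lower, an edgeR fit of all 27 mice called 4 higher (*Lamb3*, *Lama3*, *Fn1* and *Col27a1*), and with no filter on low counts 3 were higher. limma voom called 5 higher and 1 lower, and *Col27a1* did not pass there. With the replicate number as a block, *Lama3* and *Lamb3* passed and the other 4 genes did not; for *Fn1* the adjusted p was then 0.0615 (edgeR).

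**Figure D2:**
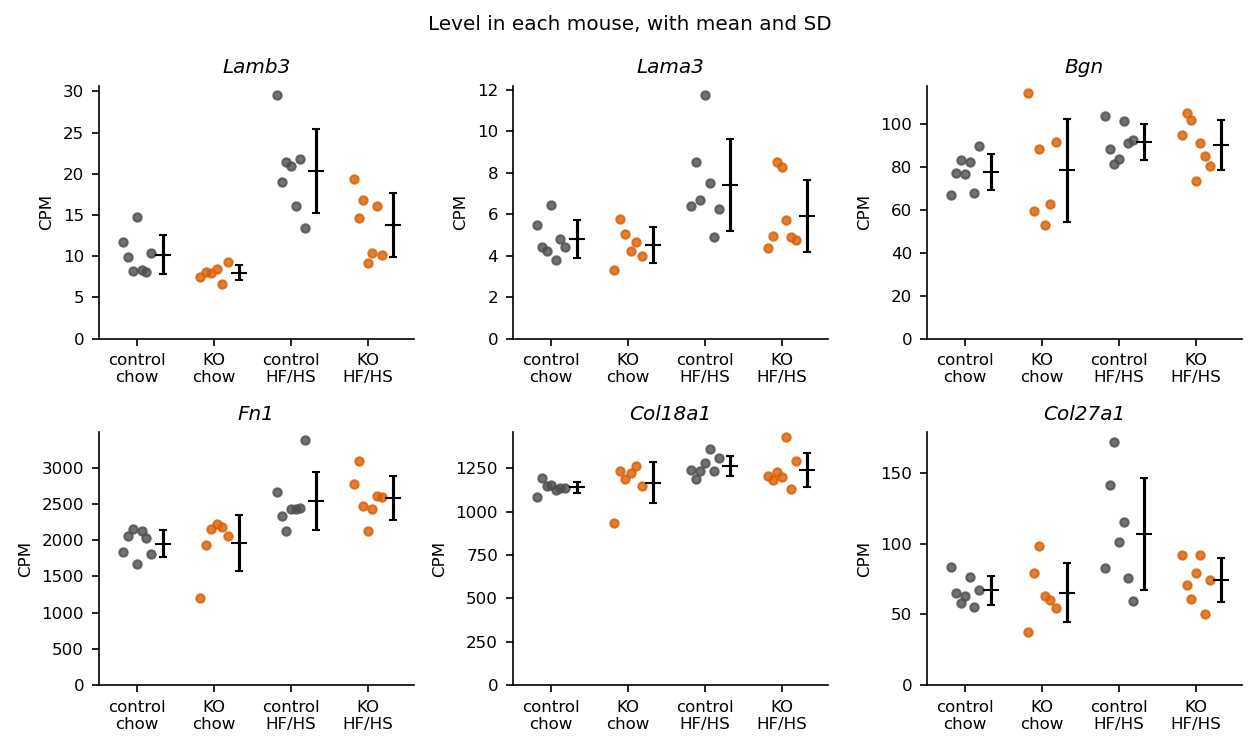
Level in CPM of the 6 genes called higher on HF/HS in controls (*Lamb3*, *Lama3*, *Bgn*, *Fn1*, *Col18a1* and *Col27a1*), in panels with axes from 0. Points are mice (grey, control; orange, HGFAC-KO) and bars are group means with SD; *Lamb3* is higher on HF/HS in both genotypes, with group means of 10.2 and 7.99 CPM on chow and 20.3 and 13.8 CPM on HF/HS in control and HGFAC-KO mice.

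The chains of collagens I and III and the stellate cell genes *Acta2*, *Des* and *Reln* did not pass the test for diet in controls. *Col1a1* was 8.66 ± 2.96 CPM on chow and 9.02 ± 3.21 CPM on HF/HS (SD, n = 7 each), and *Col1a2* had medians of 15.9 and 15.1 CPM. For *Col1a1* the 95% interval of the log2 difference was -0.42 to 0.53, which spans changes in both directions. *Col3a1* was 23.8 ± 5.16 and 29.4 ± 6.92 CPM, a log2 difference of 0.30 ± 0.16 (unadjusted p = 0.0747 and adjusted p = 0.247, edgeR). *Acta2* was 1.49 ± 0.831 and 1.23 ± 0.156 CPM, and *Des*, the muscle-type intermediate filament of mouse stellate cells, was 4.26 ± 0.663 and 4.67 ± 0.690 CPM. *Reln* was 54.3 ± 9.40 and 68.0 ± 12.1 CPM (log2 difference 0.32 ± 0.12, unadjusted p = 0.0195 and adjusted p = 0.112, edgeR).

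Among the collagens with lower mean levels on HF/HS, *Col15a1* and *Col12a1* had the smallest p, and neither passed the test. *Col15a1*, a basement-membrane-zone collagen related to *Col18a1*, was 22.1 ± 2.50 CPM on chow and 16.1 ± 4.32 CPM on HF/HS, and 6 of 7 HF/HS-fed controls lay below every chow-fed control (log2 difference -0.47 ± 0.15, adjusted p = 0.0642, edgeR). *Col12a1*, which coats collagen fibrils, was 5.36 ± 1.15 and 3.85 ± 0.936 CPM (log2 difference -0.48 ± 0.16, adjusted p = 0.0689, edgeR).

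In HGFAC-KO mice, 1 matrix gene, *Lamb3*, rose on HF/HS and none fell. Of 58 genes tested, 1 was called higher, beside 3.17% of all genes called higher and 2.73% called lower. At an unadjusted p under 0.05 there were 8, beside 22.4% of all genes. All 8 were higher on HF/HS: *Lamb3*, *Fn1*, *Reln*, *Lama1*, *Tgfb1*, *Col4a1*, *Col14a1* and *Lama3*. The whole set leaned the same way, with 43 of 58 genes above 0 and a median log2 fold change of 0.19, against 0.00 for all genes; this median was 0.29 without chow-fed HGFAC-KO mouse 1 and 0.13 without mouse 4. DESeq2, and an edgeR fit of all 27 mice, each called 3 genes higher, which were *Lamb3*, *Fn1* and *Reln*.

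*Lamb3* was 6.66, 7.99 and 9.35 CPM (lowest, median and highest of 6) in chow-fed HGFAC-KO mice and 9.21, 14.6 and 19.3 CPM (of 7) on HF/HS, and 6 of the 7 exceeded every chow-fed HGFAC-KO mouse. The log2 fold change was 0.79 ± 0.17 (adjusted p = 0.0117, edgeR; exact permutation p = 0.00408). *Fn1* averaged 1958 ± 387 CPM on chow and 2586 ± 303 CPM on HF/HS, a log2 difference of 0.40 ± 0.13, close to that in controls but not past the threshold (adjusted p = 0.0741, edgeR). The chow group held 1 mouse with 1200 CPM of *Fn1*, and without it the log2 difference was 0.29.

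*Reln* was 44.3 ± 11.6 CPM on chow and 64.7 ± 14.8 CPM on HF/HS in HGFAC-KO mice (log2 difference 0.54 ± 0.19, adjusted p = 0.0989, edgeR). *Tgfb1*, the main profibrotic cytokine, was 8.20 ± 1.73 and 10.5 ± 2.15 CPM (log2 difference 0.35 ± 0.15, adjusted p = 0.183, edgeR). The fibrillar chains *Col3a1*, *Col1a1* and *Col1a2* had log2 differences of 0.61 ± 0.29, 0.53 ± 0.34 and 0.38 ± 0.25, with adjusted p = 0.228, 0.393 and 0.399 (edgeR). Of the other genes that rose in controls, *Lama3* had a log2 difference of 0.40 ± 0.18, *Bgn* of 0.20 ± 0.16, *Col27a1* of 0.18 ± 0.20 and *Col18a1* of 0.09 ± 0.08 in HGFAC-KO mice, and none passed the threshold there. Single chow-fed HGFAC-KO mice moved 3 of these. The log2 difference of *Col27a1* was 0.06 without mouse 1 and 0.33 without mouse 3. That of *Col18a1* was 0.03 without mouse 1 and 0.11 without mouse 5, and that of *Bgn* was 0.11 without mouse 4 and 0.34 without mouse 1.

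**Figure D3:**
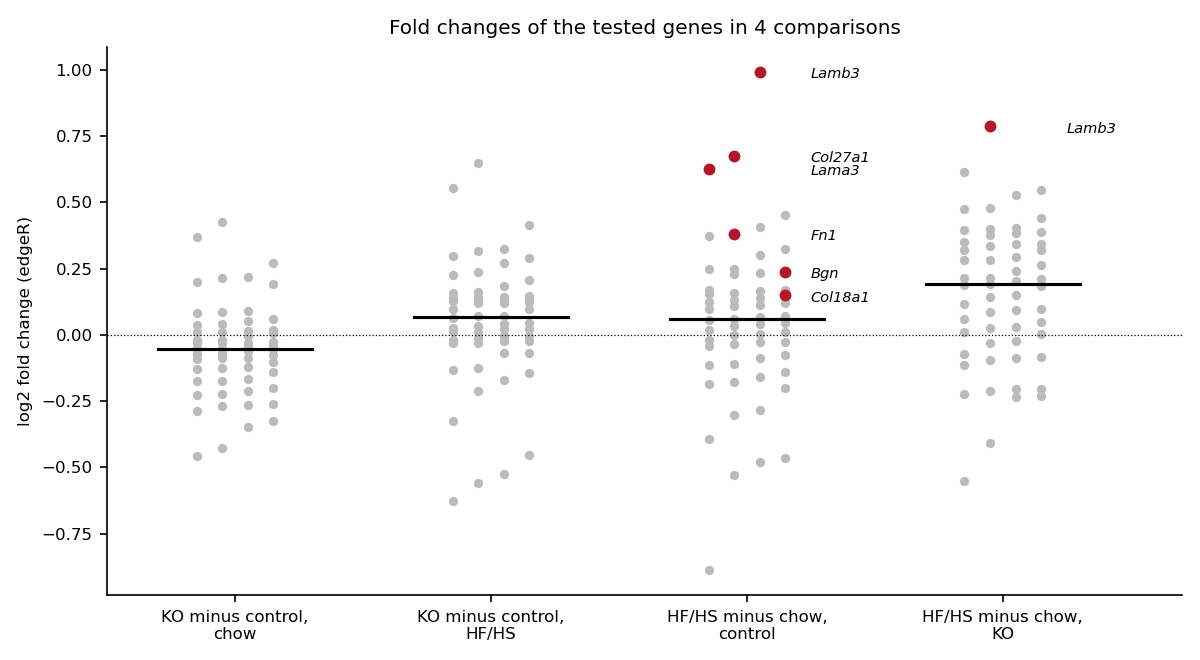
Log2 fold change (edgeR) of each matrix gene tested in the 4 comparisons, with the median as a bar. Red, named points passed an adjusted p of 0.05: 6 genes for diet in controls, *Lamb3* for diet in HGFAC-KO mice and none for genotype on either diet.

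Loss of HGFAC changed no matrix gene past the threshold on either diet. On chow, 0 of 58 genes were called by edgeR, where 0.00737% of all genes were (1 gene, *Hgfac*). At an unadjusted p under 0.05 there were 3, beside 5.98% of all genes. DESeq2 without independent filtering and limma voom also called 0. On chow 39 of the 58 genes were below 0 and the median log2 fold change was -0.05, a lean that rested on single mice: without HGFAC-KO mouse 4 the median was 0.03, and without HGFAC-KO mouse 1 it was -0.14.

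On HF/HS, 0 of 58 genes were called by edgeR, beside 0.0148% of all genes. At an unadjusted p under 0.05 there were 4, beside 9.64% of all genes. DESeq2 and limma voom called 0 here too. There 38 of the 58 genes were above 0, with a median log2 fold change of 0.07. Leaving out single mice kept this median above 0, between 0.02 (without HGFAC-KO mouse 3) and 0.12 (without control mouse 1). The groups of chains did not all lean the same way: the 5 collagen VI-type chains and the 5 basement membrane collagens tested were above 0, with highest values of 0.65 and 0.21 on the log2 scale and none at an unadjusted p under 0.05, while 7 of the 11 laminin chains were below 0 (median -0.02, 1 at an unadjusted p under 0.05).

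*Lamb3* was the matrix gene with the smallest p on HF/HS, and its level was lower in HGFAC-KO mice on both diets without passing the adjusted threshold on either. On chow, controls ran from 8.12 to 14.8 CPM and HGFAC-KO mice from 6.66 to 9.35 CPM, with 4 of 6 HGFAC-KO mice below every control (log2 difference -0.35 ± 0.13, unadjusted p = 0.0206 and adjusted p = 0.801, edgeR). On HF/HS, controls ran from 13.5 to 29.5 CPM and HGFAC-KO mice from 9.21 to 19.3 CPM, with 3 of 7 HGFAC-KO mice below every control (log2 difference -0.56 ± 0.19, unadjusted p = 0.00993 and adjusted p = 0.439, edgeR). The log2 difference stayed negative whichever mouse was left out, in the range -0.40 to -0.23 for chow and -0.66 to -0.44 for HF/HS.

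*Mmp14*, which cleaves collagen at the cell surface and activates pro-MMP2, had the smallest p of the set on chow. Controls had 62.7 ± 6.48 CPM, against 71.7 ± 5.13 CPM in HGFAC-KO mice (log2 difference 0.20 ± 0.07, unadjusted p = 0.0125 and adjusted p = 0.801, edgeR). On HF/HS it was 65.9 ± 5.70 and 73.4 ± 9.66 CPM (log2 difference 0.16 ± 0.08, unadjusted p = 0.0791, edgeR). *Col12a1* was 5.36 ± 1.15 CPM in chow-fed controls and 3.89 ± 1.40 CPM in chow-fed HGFAC-KO mice (log2 difference -0.46 ± 0.21, adjusted p = 0.801, edgeR).

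Collagen I and III chains were higher on average in HF/HS-fed HGFAC-KO mice, within the spread between mice. *Col1a1* ran from 5.37 to 13.8 CPM (median 7.47) in controls and from 6.12 to 19.8 CPM (median 13.6) in HGFAC-KO mice, and 3 of 7 HGFAC-KO mice lay above every control. The log2 difference was 0.55 ± 0.26 (unadjusted p = 0.0488 and adjusted p = 0.516, edgeR), and the exact permutation test gave p = 0.0886. *Col1a2* had a log2 difference of 0.30 ± 0.18 and *Col3a1* of 0.32 ± 0.20, with adjusted p = 0.609 and 0.624 (edgeR). Without HGFAC-KO mouse 3 the log2 differences were 0.43, 0.16 and 0.16 for *Col1a1*, *Col1a2* and *Col3a1*. *Col27a1* was lower on average: it was 107 ± 39.4 CPM in HF/HS-fed controls and 74.2 ± 15.4 CPM in HF/HS-fed HGFAC-KO mice (log2 difference -0.52 ± 0.22, adjusted p = 0.480, edgeR).

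Whether diet acted differently in the 2 genotypes was tested by the genotype by diet interaction over all 27 mice. Of 61 genes, 0 were called by edgeR, beside 0% of the 13932 genes tested. At an unadjusted p under 0.05 there were also 0, beside 3.63% of all genes. DESeq2 and limma voom called 0 as well. In the edgeR fit 42 of the 61 genes were above 0, with a median of 0.15 against 0.00 for all genes. Leaving out single mice gave medians from 0.06 (without chow-fed HGFAC-KO mouse 4) to 0.21 (without chow-fed HGFAC-KO mouse 1). The smallest p values, all unadjusted and from edgeR, were those of *Col27a1*, *Col15a1* and *Col6a5*. Their differences of log2 fold changes were -0.49 ± 0.29, 0.47 ± 0.30 and 1.04 ± 0.71 (SE), each with an adjusted p = 0.984 (edgeR), and *Col6a5* was at only 0.170 to 0.308 CPM on average in the 4 groups. With limma voom the difference for *Col6a5* was 0.47. For *Lamb3* the difference was -0.21 with a 95% interval of -0.69 to 0.28, and for *Fn1* it was 0.02 with an interval of -0.29 to 0.33. The call of 6 genes in controls against 1 in HGFAC-KO mice is thus not shown to be a difference between genotypes.

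Single mice differed over the whole set, most of all in the chow-fed HGFAC-KO group. For each mouse, the deviation of its log2 CPM from the chow-fed control mean was taken for every gene. The median over the 61 genes ran from -0.17 to 0.21 in chow-fed controls, from -0.54 to 0.25 in chow-fed HGFAC-KO mice, from -0.09 to 0.23 in HF/HS-fed controls and from -0.09 to 0.37 in HF/HS-fed HGFAC-KO mice. The number of genes above the chow-fed control mean ran from 10 of 61 in chow-fed HGFAC-KO mouse 5 to 51 in HF/HS-fed HGFAC-KO mouse 2. The mean deviation of 5 fibrillar chains (*Col1a1*, *Col1a2*, *Col3a1*, *Col5a1* and *Col5a2*) ran wider, from -0.85 in chow-fed HGFAC-KO mouse 4 to 0.97 in HF/HS-fed HGFAC-KO mouse 3. In RNA from whole liver, fewer cells of a type and less RNA per cell cannot be told apart.

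**Figure D4:**
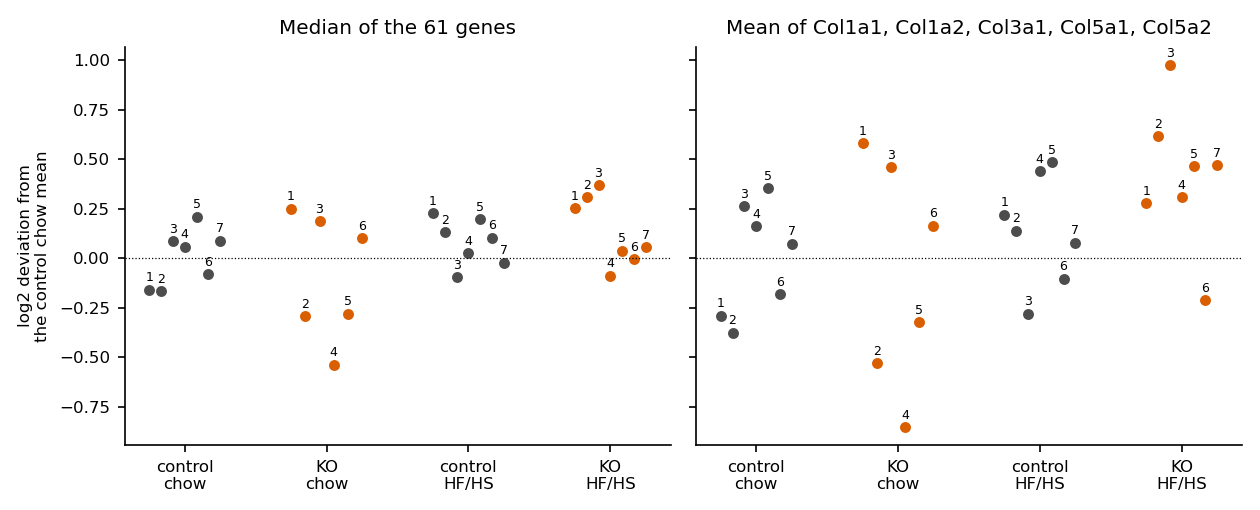
Deviation of each mouse from the chow-fed control mean on the log2 scale, as the median over the 61 genes (left) and the mean of 5 fibrillar chains (right); points are mice, numbered by replicate. The chow-fed HGFAC-KO mice have the widest spread, from -0.54 to 0.25 on the left.

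Chains that assemble into one molecule varied together from mouse to mouse. With group means removed, log2 CPM over the 27 mice had Pearson's r = 0.949 for *Col1a1* and *Col1a2* (Spearman's rho = 0.931), 0.901 for *Col6a1* and *Col6a2* (rho = 0.867) and 0.880 for *Col4a1* and *Col4a2* (rho = 0.874). For *Col1a1* and *Col1a2* and for *Col4a1* and *Col4a2*, the permutation test with 100000 resamples gave p = 1e-05 for each coefficient, the smallest it can give, and adjusted p = 2e-05 for r and 3.2e-05 for rho over the 8 pairs. Without the 2 mice farthest from the median, r was 0.936, 0.836 and 0.835 for the same pairs.

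The laminin partners tested were *Lamc1* and 3 other chains. *Lamb1* and *Lamc1* had r = 0.763 (rho = 0.808; permutation p = 5e-05 and 2e-05), *Lamb2* and *Lamc1* had r = 0.563 (rho = 0.629; p = 0.0118 and 0.00369), and *Lama4* and *Lamc1* had r = 0.501 (rho = 0.485; p = 0.00905 and 0.0127). These stood at r = 0.750, 0.616 and 0.520 without the 2 mice farthest from the median. The remaining pairs, *Col5a1* with *Col5a2* and *Col6a1* with *Col6a3*, had r = 0.708 and 0.816 (rho = 0.750 and 0.798; permutation p = 0.00106 and 1e-05 for r, 6e-05 and 2e-05 for rho), and r = 0.692 and 0.783 without 2 mice. All 8 pairs had an adjusted p of at most 0.0127. The gene bodies of *Col4a1* and *Col4a2* overlap at their shared start on opposite strands, and the points of every pair share library and depth. Pairs of matrix genes that do not share a molecule were not tested, and single mice differed over the whole set. The correlations are thus not shown to be particular to partners.

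**Figure D5:**
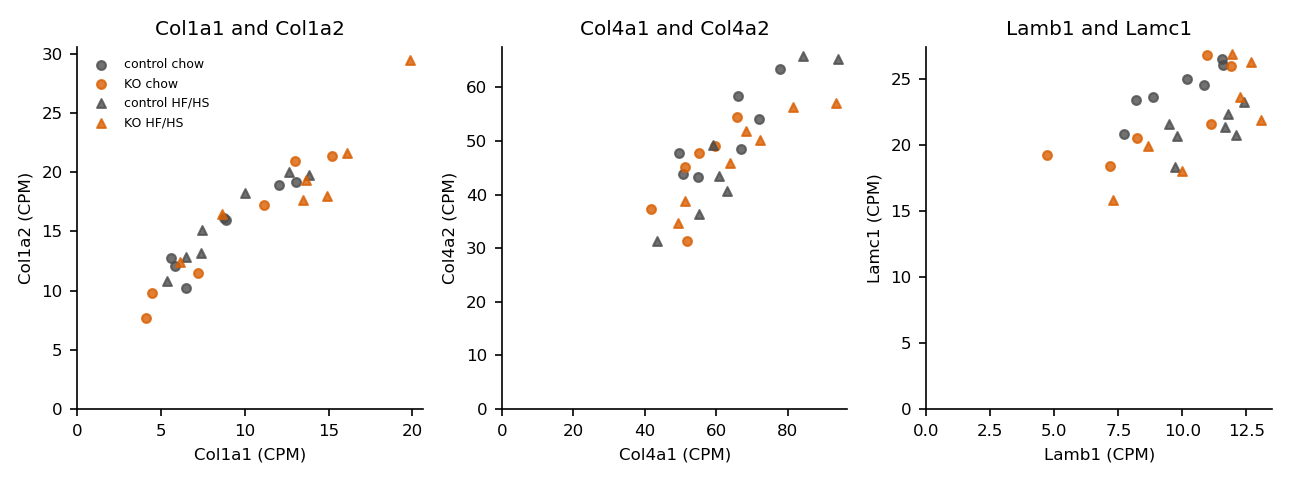
CPM of the partners of 3 matrix molecules in each of the 27 mice, with axes from 0; colour marks genotype and shape marks diet. *Col1a1* and *Col1a2* lie close to a line (r = 0.949 with group means removed), *Lamb1* and *Lamc1* less so (r = 0.763).

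Genes that process, cleave and bind matrix, which are not among the 61, were called in both directions with diet, at shares to be read against the 4.93% of all genes called higher and 5.6% called lower in controls, and 3.17% and 2.73% in HGFAC-KO mice. In controls on HF/HS, 1 of 27 tested genes of collagen assembly rose and 1 fell. *Adamts2*, which trims the N-terminal propeptide of fibrillar collagens, went from 4.30 to 5.94 CPM on average (log2 fold change 0.47 ± 0.13, adjusted p = 0.0296, edgeR), and *Mia3*, which loads procollagen for export from the endoplasmic reticulum, from 301 to 247 CPM (-0.29 ± 0.07, adjusted p = 0.0119). Of 26 matrix proteases and inhibitors, 3 rose and 2 fell, among them *Adamts1* (0.48 ± 0.10, adjusted p = 0.00459) and *Mmp19* (-0.36 ± 0.06, adjusted p = 0.00132). Of 25 matrix receptors, 1 rose and 4 fell. *Itga6*, an alpha subunit of integrins that bind laminin, was at 3.85 CPM on chow and 2.07 CPM on HF/HS (-0.90 ± 0.13, adjusted p = 0.000284, edgeR), while the heparan sulphate proteoglycan *Sdc4* went from 284 to 409 CPM (0.52 ± 0.12, adjusted p = 0.0121).

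Among 41 other matrix glycoproteins, 2 rose and 2 fell in controls. *Npnt*, an integrin ligand of basement membranes, averaged 1.09 CPM on chow and 0.403 CPM on HF/HS (change of -1.45 ± 0.26 in log2, adjusted p = 0.00194, edgeR) and the basement membrane linker *Nid2* from 12.1 to 8.89 CPM (-0.44 ± 0.08, adjusted p = 0.00242). In HGFAC-KO mice, 1 of 41 rose, the elastic-fibre protein *Emilin1* (0.44 ± 0.10, adjusted p = 0.0201), and 4 of 26 receptors rose and 3 fell, among them the collagen receptor *Ddr2* (0.53 ± 0.13, adjusted p = 0.0264) and the syndecan *Sdc3* (0.71 ± 0.10, adjusted p = 0.000997). Of 28 proteases and inhibitors, 1 rose (*Adamts1*, 0.67 ± 0.16, adjusted p = 0.0265) and 1 fell (*Mmp19*, -0.24 ± 0.06, adjusted p = 0.0305). Of 26 genes of collagen assembly, 1 rose and none fell.

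In the signalling list for TGF-beta and PDGF, 2 of 27 genes rose and 1 fell with diet in controls, beside 4.93% and 5.6% of all genes: the TGF-beta-induced matrix protein *Tgfbi* (0.39 ± 0.08, adjusted p = 0.00537, edgeR) and the ubiquitin ligase *Smurf1* (0.36 ± 0.08, adjusted p = 0.0112) were higher, and the ligand *Pdgfa* was lower (-0.32 ± 0.10, adjusted p = 0.0452). In HGFAC-KO mice 1 of 27 rose, beside 3.17% of all genes, the receptor *Tgfbr1* (0.33 ± 0.08, adjusted p = 0.0181). Between genotypes, 0 genes of the collagen assembly, glycoprotein, protease, receptor and signalling lists were called by edgeR on either diet.

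Of 29 markers of resting stellate cells tested for diet in controls, 26 were above 0, with a median log2 fold change of 0.18. By edgeR 4 rose and 2 fell, beside 4.93% of all genes called higher and 5.6% called lower. *Ecm1*, *Sod3* and *Colec11* rose by 0.28, 0.29 and 0.26 on the log2 scale (adjusted p = 0.0193, 0.0124 and 0.0182, edgeR). *Lrat*, the enzyme that stores retinol as its ester in stellate cells, fell from a median of 21.5 CPM to 13.9 CPM (-0.60 ± 0.16, adjusted p = 0.0273); it was named after its values were seen. In HGFAC-KO mice, where 3.17% of all genes were called higher and 2.73% lower, 1 of 29 rose, *Hgf*, the growth factor that HGFAC activates, from 4.00 to 7.54 CPM (0.91 ± 0.24, adjusted p = 0.0411, edgeR), and 1 fell (*Ank3*, -0.40 ± 0.10, adjusted p = 0.0323). Of 18 markers of activated stellate cells and myofibroblasts, 0 rose and 2 fell in controls (5.6% of all genes were lower), *Tpm1* (-0.38 ± 0.06, adjusted p = 0.000391, edgeR) and *Lgals1* (-0.48 ± 0.12, adjusted p = 0.0207), and in HGFAC-KO mice edgeR called 0, with 2 at an unadjusted p under 0.05, beside 22.4% of all genes.

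Between genotypes edgeR called 0 of the stellate cell markers on either diet. On chow, 20 of the 29 resting stellate cell markers were below 0 in HGFAC-KO mice (median log2 fold change -0.09), with 6 at an unadjusted p under 0.05, 2 of them higher and 4 lower, beside 5.98% of all genes. On HF/HS, 21 of the 29 were below 0 (median -0.10), with 2 at an unadjusted p under 0.05, beside 9.64% of all genes. Of the 18 activated stellate cell and myofibroblast markers, 9 were below 0 on chow and 8 on HF/HS (medians -0.01 and 0.08), with 2 and 3 at an unadjusted p under 0.05.

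Markers of the other liver cell types are given here beside the matrix genes. Sinusoidal endothelial markers were above 0 on HF/HS for 19 of 20 genes in controls (median log2 fold change 0.26, none called by edgeR). Of these markers, 11 had an unadjusted p under 0.05 in controls, beside 25.4% of all genes. In HGFAC-KO mice 19 of 20 endothelial markers were above 0 (median 0.33), with 2 called higher, beside 3.17% of all genes. Their summed level ran from 462 to 714 CPM in chow-fed controls, 383 to 603 in chow-fed HGFAC-KO mice, 531 to 843 in HF/HS-fed controls and 491 to 717 in HF/HS-fed HGFAC-KO mice. Of the Kupffer cell and leukocyte markers, 1 of 26 rose in controls (median 0.24) and 9 of 25 rose in HGFAC-KO mice (median 0.50), beside 4.93% and 3.17% of all genes called higher. In the genotype by diet interaction 22 of these 26 markers were above 0 (median 0.23). EdgeR called 0 of the 26 there, with 0 at an unadjusted p under 0.05, beside 3.63% of all genes. The counts are thus not shown to differ between genotypes. Their summed level ran from 253 to 493, 236 to 355, 301 to 601 and 332 to 509 CPM in the same 4 groups. On chow, 19 of 20 endothelial and 19 of 24 Kupffer cell and leukocyte markers were below 0 in HGFAC-KO mice (medians -0.22 and -0.21). None were called by edgeR, and 4 and 2 had an unadjusted p under 0.05, beside 5.98% of all genes. On HF/HS, 19 of 20 endothelial markers were again below 0 (median -0.14), with 5 at an unadjusted p under 0.05, beside 9.64% of all genes. There 16 of 26 Kupffer cell and leukocyte markers were above 0 (median 0.04), with 1 at an unadjusted p under 0.05. No marker of either list was called by edgeR. The part of these cells in the matrix gene differences was not tested. No cholangiocyte marker was called in any comparison by edgeR (0 of 11, with at most 2 at an unadjusted p under 0.05), and 1 of 7 mesothelial markers fell with diet in HGFAC-KO mice, the keratin gene *Krt8*, which hepatocytes also express. The other 6 mesothelial markers were above 0 there (median of the 7, 0.37). In the interaction all 9 tested were above 0 (median 0.49), with 0 called by edgeR and 1 at an unadjusted p under 0.05, beside 3.63% of all genes. Portal fibroblast markers had 1 call, *Cd34*, lower on HF/HS in controls (1 of 9). Of 6 adipocyte markers, 2 passed the filter on low counts, and the sum of all 6 was 4.39 to 21.2 CPM over all mice. The 13 hepatocyte markers had 1 called higher and 2 lower with diet in controls, and 0 higher and 2 lower in HGFAC-KO mice. The shares of all genes called lower, against which these counts and those of the portal fibroblast and mesothelial markers are read, were 5.6% in controls and 2.73% in HGFAC-KO mice.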

How the data were processed

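RNA was taken from liver of 27 mice and made into stranded mRNA libraries. The authors aligned paired-end reads to GRCm38 (mm10) with HISAT2 and counted them per gene with featureCounts (1.6.3 per the submitters' processing notes), and deposited raw counts, 1 column per mouse; the annotation and strand setting are not given in the sources used here. Without the strand setting, reads of genes that overlap on opposite strands may not be separable; among such members are *Fn1*, *Reln*, *Des*, *Lama3*, *Col5a1*, *Col15a1*, *Timp3*, *Eln*, *Lox*, and *Col4a1* with *Col4a2*. Of 27179 rows, 3886 had no gene name and held 4.13% to 12.1% of the counts of a library; they stayed out of library sizes and tests. Exon lengths came from GENCODE M21 and upstream sequences from a table of RefSeq promoters in which 19 of the 27 named members were matched.

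Counts were TMM-normalized and genes filtered with filterByExpr (minimum count 10), separately for each pair of groups, and tested with edgeR 4.0.16 (quasi-likelihood, R 4.3.3) with Benjamini-Hochberg adjustment over all genes tested and a threshold of 0.05. The interaction used all 27 mice. Exact two-sided permutation tests used log2 CPM with a prior count of 2, and could reach 0.000583 at the lowest. Alternatives were DESeq2 1.42.0, limma 3.58.1 (voom), upper-quartile normalization, 2 other filters, a fit of all mice, a replicate block and leaving out each mouse. In simulated data with known changes, edgeR recovered 68% of genes changed by 0.5 on the log2 scale for genotype on chow, and 80% of those changed by 1. For diet in controls the shares were 72% and 94%. False calls numbered 7 and 12, in the same order of comparisons. The simulated mice had no shift shared by many genes, and the changed genes were drawn from all genes past the filter. These shares thus do not give the power for the matrix genes.

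Members and gene lists were chosen with earlier results of these data known. The named members were those past the threshold or with the 3 smallest p in a comparison, defining genes of collagens I, III, IV and VI, laminin and stellate cells, and the 5 highest per kb; from each other list at most 3 genes per comparison with the smallest p were named. Replicate numbers were not taken to pair the mice. *Col5a3*, *Col14a1*, *Col20a1*, *Col24a1*, *Lama1* and *Lrat* were named after their values were seen. A member counted in the totals is not reported here.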

Additional observations from a re-analysis of the deposited data

Results flagged for a closer look

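Each of 26 named genes was screened within each of the 4 groups, 104 screens in all, for a mouse that stood apart from the others by Dixon's criterion at 95%; chance alone flags about 1 screen in 20. There were 4 such values, and 3 of them came from 1 mouse, chow-fed HGFAC-KO mouse 1. Its *Fn1* level was 1200 CPM, while the others of its group were at 1930 to 2220 CPM. Its *Col18a1* level was 937 CPM, while the others were at 1150 to 1260 CPM. Its *Acta2* level was 4.15 CPM, while the others were at 0.523 to 1.25 CPM. The fourth value was *Fn1* in HF/HS-fed control mouse 7, at 3380 CPM beside 2120 to 2670 CPM in the other 6 mice of that group. The cause of these values was not tested.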

How the results depend on the processing

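For genotype on both diets and for the interaction, every alternative run called 0 matrix genes in either direction. For genotype on chow, DESeq2 with its independent filtering gave an adjusted p to only 4 of the 58 matrix genes. Without that filtering all 58 had one. For diet in controls (6 higher, 0 lower), DESeq2 called 4 lower with or without independent filtering (the latter chosen after seeing the data), limma voom and upper-quartile normalization called 1 lower each, no filter on low counts left 3 higher, the fit of all 27 mice called 4 higher, and leaving out single mice gave 2 to 6 higher and 0 to 2 lower. For diet in HGFAC-KO mice (1 higher), DESeq2 called 3 with or without independent filtering, the fit of all 27 mice called 3, and leaving out single mice gave 1 to 2. With the replicate number as a block, 2 genes were higher in controls (*Lama3*, *Lamb3*) and 4 in HGFAC-KO mice (*Lamb3*, *Reln*, *Col14a1*, *Lama1*). Correlations between the deviations of same-numbered mice lay between -0.25 and 0.37, and in each comparison at least 1 was below 0. For diet in HGFAC-KO mice 5 of 6 were above 0 and 4 were over 0.1, with the sixth at -0.15. The labels give no pairing by number, and the mice were treated as unpaired. None of the 33 fold changes of single genes that were recomputed changed sign under any alternative. The median of all genes stayed between -0.01 and 0.01 under each alternative other than leaving out mice. Low-count chains such as *Col24a1*, under 1 CPM in group means, limit what differences could be detected. In chow-fed HGFAC-KO mice, mouse 1 and mouse 4 moved the medians of the set most.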
